A study of Rattus norvegicus with 9 samples.

Results

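The let-7 microRNAs and miR-3596a were followed through the small RNA of exosomes, membrane vesicles shed by cells, that were collected from rat peritoneal macrophages. The family is given by 10 names, which are rno-let-7a-5p, rno-let-7b-5p, rno-let-7c-5p, rno-let-7d-5p, rno-let-7e-5p, rno-let-7f-5p, rno-let-7g-5p, rno-let-7i-5p, rno-let-7d-3p and rno-miR-3596a, written without their rno prefix from here on. They were chosen by name from the 201 mature miRNAs of the deposited table, together with the sequence tags that carried those names in the files of single libraries. There were 9 libraries, 3 in each of 3 groups. In the LPS+AS-IV group cells were given 150 µM astragaloside IV (AS-IV), a plant saponin, for 24 h and then lipopolysaccharide (LPS), a bacterial outer membrane component that activates macrophages. Cells of the LPS group were given 100 ng/ml LPS alone for 6 h, and Control cells were kept in 0.1% DMSO for 24 h. The stocks of both agents were made in DMSO. The cells came by lavage from untreated rat and were grown with 10% fetal bovine serum, and removal of serum vesicles is not stated. Nothing in the labels ties a replicate to an animal or culture of its own, so each p-value measures the spread between these samples alone, which may be technical.

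A microRNA guides a silencing complex to messenger RNAs through its seed, bases 2 to 8 from the 5′ end. The let-7 family was found in Caenorhabditis elegans as a timer of development and is among the most conserved animal microRNA families. In mammals it rises as cells differentiate, LIN28 blocks its maturation by having its precursors tailed with uridine, and its known targets include RAS genes, HMGA2 and IL6. In mouse macrophages let-7e is known to restrain the LPS receptor TLR4, and let-7i does so in human bile duct cells.

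The mature sequences of the members, from RefSeq on the rat build GRCr8, are shown with the seed in capitals because the seed groups them and their few other differences decide the name of a tag.
let-7a-5p: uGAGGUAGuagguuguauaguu
let-7b-5p: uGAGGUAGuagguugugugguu
let-7c-5p: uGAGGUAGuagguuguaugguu
let-7d-5p: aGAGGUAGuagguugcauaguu
let-7e-5p: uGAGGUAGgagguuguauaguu
let-7f-5p: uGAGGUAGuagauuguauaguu
let-7g-5p: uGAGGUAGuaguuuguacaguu
let-7i-5p: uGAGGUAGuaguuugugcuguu
let-7d-3p: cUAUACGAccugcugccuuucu
miR-3596a: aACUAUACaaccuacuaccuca
All 10 are 22 nt long. The 8 let-7 5p arms share the seed GAGGUAG, which miR-98-5p also has. They differ from let-7a-5p in 1 base (let-7c, let-7e and let-7f), 2 bases (let-7b, let-7d and let-7g) or 4 bases (let-7i). The seed of let-7d-3p is UAUACGA and that of miR-3596a is ACUAUAC, so neither belongs with the others by seed.

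The let-7 genes lie in small clusters. On chromosome 17 the mature let-7a of Mirlet7a1 starts at 16320145, let-7f of Mirlet7f-1os at 16320508 and let-7d-5p at 16322273, all on the plus strand. On chromosome 7, let-7c of Mirlet7c2 starts at 118683636 and let-7b at 118684044. The second let-7a gene, Mirlet7a-2, has its mature sequence at chr8:50805219-50805240 on the plus strand. Mir3596a has the same coordinates on the minus strand.

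miR-3596a is therefore the exact reverse complement of let-7a-5p over all 22 bases, and the tag sequences show which strand was read. Across the 9 libraries, 19451 reads carried the name miR-3596a, of which 19234 contained the let-7 seed. On the strand of miR-3596a itself there were 0 reads, searching for the inner 18 bases of its mature sequence. A count of 0 allows up to 3 reads per library, which was 0.315 to 0.861 reads per 1000000 assigned reads. miR-3596b, miR-3596c and miR-3596d are reverse complements of parts of let-7d, let-7e and let-7f. They held 62, 25954 and 10340 reads, and none of these names had a read on its own strand. The 4 names together took 55807 reads, and 55524 of them contained the let-7 seed, so nearly all were let-7 reads by sequence.

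The full let-7a-5p tag went under a different name in different libraries, and it is shown with 2 of its variants because their names decide the counts.
let-7a-5p tag, 22 nt: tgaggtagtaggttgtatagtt
let-7a-5p tag, 21 nt: tgaggtagtaggttgtatagt
let-7a-5p tag with G added: tgaggtagtaggttgtatagttG
The capital marks the added base. The 22-nt tag was assigned to let-7a-5p in the 3 LPS+AS-IV and the 3 LPS libraries and to miR-3596a in the 3 Control libraries. The 21-nt tag, with 25657 reads, was assigned to a miR-3596c hairpin in every library and so stood outside the table of mature miRNAs. It differs in 1 base from the reverse complement of miR-3596c. The tag with an added G was called miR-3596a in LPS 2, LPS 3 and Control 3 (525 reads) and let-7a-5p in the libraries LPS+AS-IV 1, LPS+AS-IV 2 and LPS 1 (157 reads).

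In the deposited table, let-7a-5p had 1029, 6717 and 42928 reads in LPS+AS-IV, 1884, 4421 and 4656 in LPS, and 0 in each Control library. miR-3596a had 0, 9 and 10 reads in LPS+AS-IV, 0, 271 and 129 in LPS, and 2873, 2831 and 6742 in Control. The 2 names exchanged places between Control and the other groups. On these names edgeR's quasi-likelihood test called let-7a-5p in LPS+AS-IV against Control (adjusted p = 3.43e-10) and in LPS against Control (adjusted p = 3.96e-10). Scaled to 1000000 table reads, its mean was at least 1167-fold higher in LPS+AS-IV and at least 1042-fold higher in LPS than in Control, taking 3 reads for each Control library. miR-3596a was called lower in LPS+AS-IV against Control (adjusted p = 9.22e-04). These were the only calls among 94 tested miRNAs, a background of 2.13% in LPS+AS-IV against Control and 1.06% in LPS against Control, so every call made on the deposited names was of these 2 members.

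With each tag sequence given 1 name in all libraries, the one it had in most of them or with most reads, let-7a-5p had 1009, 6665 and 42928 reads in LPS+AS-IV, 1799, 4421 and 4656 in LPS, and 2873, 2831 and 6617 in Control. The miR-3596a row then had 20, 61 and 13 reads in LPS+AS-IV, 85, 271 and 129 in LPS, and 0, 0 and 127 in Control. It consisted of the let-7a tag with an added G (682 reads, 0 of them in LPS+AS-IV 3) and 3 rarer tags with 24 reads in all, of which 13 made up its reads in LPS+AS-IV 3. No member was called in any comparison, 0 of 10 against a background of 0 of 94 miRNAs (0%) in each. The values below rest on this naming unless said otherwise.

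**Figure D1:**
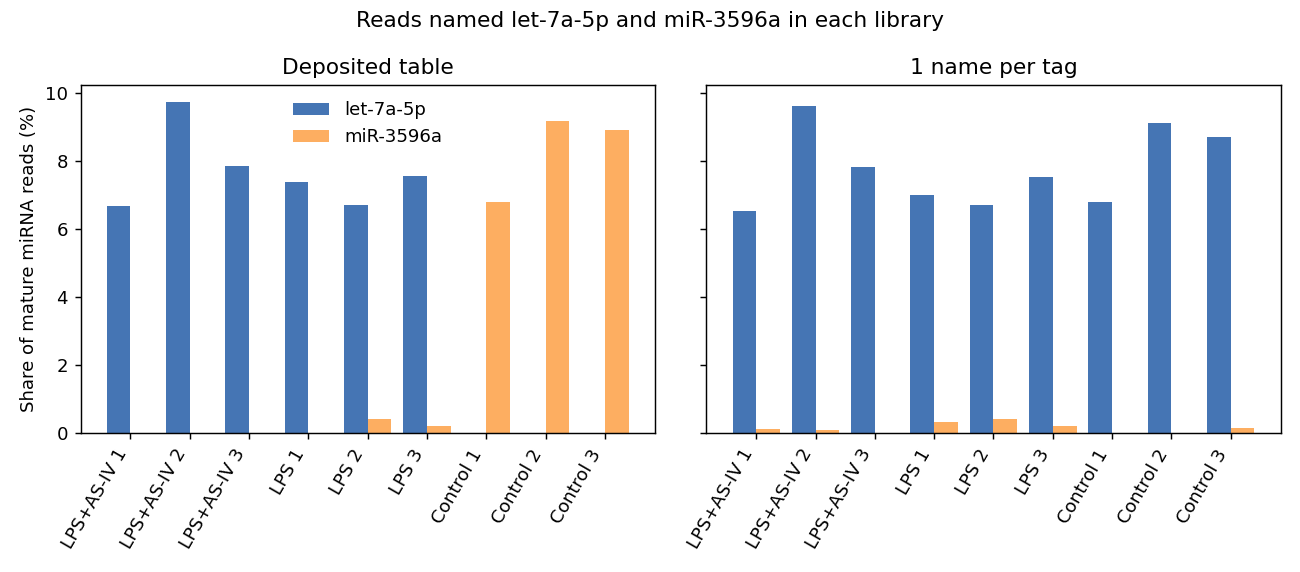
Share of mature miRNA reads (%) named let-7a-5p (blue) and miR-3596a (orange) in each library, by the deposited table (left) and with 1 name per tag sequence (right). In the deposited table the 3 Control libraries have 0 reads of let-7a-5p and hold miR-3596a in its place, and with 1 name per tag all 9 libraries hold let-7a-5p.

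Depth differed widely between libraries. Reads of mature miRNAs were 15428, 69142 and 548552 in LPS+AS-IV, 25709, 65719 and 61829 in LPS, and 42177, 31070 and 76010 in Control, out of 3484099 to 9527483 assigned reads. The deposited exp column, of unstated origin and never above the read count, held 53.7% of the table's reads in LPS+AS-IV 3 and 84.8 to 94.0% in the other libraries. LPS+AS-IV 3 also stands apart in the makeup of the family described below. Of 6 myeloid marker miRNAs 5 were detected, at summed shares of mature reads of 0.715 to 7.16% in LPS+AS-IV, 1.10 to 3.72% in LPS and 2.10 to 4.94% in Control, while miR-142-3p was at 0 in every library. Most of these reads were of miR-146a-5p in every library. miR-142-5p had 47 reads in LPS 3, 54 in Control 1 and at most 1 elsewhere. miR-223-3p was at 0 in LPS+AS-IV 1, LPS 1 and LPS 2, and miR-155-5p in LPS+AS-IV 3, Control 1 and Control 3. The 3 erythroid markers summed to 3.04 to 3.53% in LPS+AS-IV, 2.72 to 3.93% in LPS and 4.04 to 4.75% in Control. One of them, miR-144-3p, had only 1 read in LPS+AS-IV 3, 1 in Control 2 and 0 elsewhere. The endothelial marker miR-126a-3p made up 0.415 to 1.22% in LPS+AS-IV, 0.159 to 0.472% in LPS and 0.740 to 1.38% in Control. The erythroid and endothelial shares were thus lower in each LPS library than in each Control library, as the family share described next was. The erythroid markers differed in this, with a fitted log2 change in LPS against Control of -0.18 (SE 0.32) for miR-451-5p and -2.96 (SE 1.72) for miR-486. The lymphocyte marker made up 1.42 to 4.05% in LPS+AS-IV, 2.43 to 3.11% in LPS and 2.80 to 3.99% in Control. The 2 liver and serum markers made up 0.463 to 0.557%, 0.320 to 1.01% and 0.142 to 0.356% in the same groups. The part of other cells and of serum in the family's levels was not tested.

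The family was a large part of all mature miRNA reads. Its share was 25.8, 34.5 and 28.4% in LPS+AS-IV, 25.0, 26.1 and 28.7% in LPS, and 29.4, 31.2 and 30.4% in Control. Every LPS library lay below every Control library, while LPS+AS-IV spanned both groups. The 95% Wilson intervals of single libraries were at most 1.38 points wide, but they and all floors cover counting error only, since reads made by PCR are not independent molecules. The LPS mean was 26.6% ± 1.90 and the Control mean 30.4% ± 0.912 (SD, n = 3 each), a difference of -3.76 points with an exact two-sided permutation p = 0.1, the smallest that 3 against 3 can give (adjusted p = 0.3 over 3 comparisons). LPS+AS-IV averaged 29.5% ± 4.47 and did not separate from LPS (exact p = 0.5) or Control (exact p = 0.8). With fewer let-7 molecules and more of other miRNAs, a share moves the same way, and the 2 cannot be told apart here. Neither can fewer vesicles with let-7 and less let-7 in each. Scaled to the TMM-normalised library size, the summed family level was 286290, 362988 and 306735 reads per 1000000 (CPM) in LPS+AS-IV libraries, 232510, 292310 and 281671 CPM in LPS, and 275569, 281768 and 306739 CPM in Control. On that scale LPS and Control overlapped.

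The LPS share was also the lowest when tags were named by sequence. Here every tag that matched a RefSeq let-7 sequence up to base 19 was counted, whatever its assignment. At most 2 bases could be missing or added at the 5′ end. The denominator was all miRNA reads with 0 or 1 mismatch and the family's reads under the Rfam let-7 entry. This naming was chosen after the data were seen. The share was then 24.1, 29.9 and 25.6% in LPS+AS-IV, 23.4, 24.0 and 23.8% in LPS, and 25.1, 26.0 and 25.2% in Control. The LPS libraries lay below all 6 others (exact p = 0.1 and adjusted p = 0.15 against each group). Reads under an Rfam entry were added for the family alone, not for other miRNAs. They made up 9.40% of its reads in LPS+AS-IV 1 and 5.45% in LPS 2. These 2 libraries lay close together (24.1 and 24.0%). The Rfam reads were 618 of 6574 family reads in LPS+AS-IV 1 and 1531 of 28106 in LPS 2. Taken out of the family and of the denominators (27233 and 117317 reads), they leave LPS+AS-IV 1 below LPS 2. The separation of LPS from LPS+AS-IV thus rests on the Rfam reads, and no test was run without them. With the Rfam reads counted, the gap between LPS and Control was smaller, at -1.72 points.

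let-7a-5p and let-7b-5p were the most abundant members and could not be ranked against each other. Over the 9 libraries let-7a-5p averaged 78567 CPM and let-7b-5p 77510 CPM, with let-7a-5p higher in 4 of 9 libraries. Both were above let-7i-5p, at 36348 CPM, and let-7b-5p was so in 9 of 9. A middle group followed, of let-7f-5p at 26057, let-7g-5p at 23812, let-7c-5p at 21775 and let-7d-5p at 17774 CPM. Neighbours in that group differed in the same direction in only 5 or 6 of 9 libraries. let-7d-3p averaged 7255 CPM, below let-7d-5p in 8 of 9. At the bottom, the miR-3596a row averaged 1536 CPM and let-7e-5p 1209 CPM. Since all members are 22 nt long, no scaling for length was needed between them. Named by sequence, let-7b-5p averaged 74803 and let-7a-5p 66817 CPM, with let-7b-5p higher in 6 of 9 libraries.

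let-7i-5p was the steadiest member. It had 35957, 39254 and 39658 CPM in LPS+AS-IV libraries, 37164, 38614 and 30063 CPM in LPS, and 37791, 33810 and 34823 CPM in Control. The groups overlapped throughout, and its fitted log2 change was 0.12 (SE 0.29) for LPS+AS-IV against LPS, and it was -0.01 (SE 0.29) for LPS against Control. Over the 9 libraries its SD was 3076 on a mean of 36348 CPM. Named by sequence it stood out less, with an SD of 3987 on 27997 CPM, beside 10932 on 74803 CPM for let-7b-5p.

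let-7a-5p, the founding sequence of the family, had 72708, 101562 and 84661 CPM in LPS+AS-IV libraries, 65164, 75270 and 73944 CPM in LPS, and 63791, 82160 and 87847 CPM in Control. Its log2 change was 0.27 (SE 0.26) for LPS+AS-IV against LPS, and it was -0.13 (SE 0.26) for LPS against Control. let-7b-5p had 75230, 79635 and 105244 CPM in LPS+AS-IV libraries, 47451, 93844 and 74595 CPM in LPS, and 65656, 72466 and 83466 CPM in Control. For both members the groups overlapped.

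let-7c-5p varied most among the abundant members. It had 29256, 44968 and 6108 CPM in LPS+AS-IV libraries, 17133, 8053 and 20662 CPM in LPS, and 25223, 26090 and 18480 CPM in Control. The LPS+AS-IV group held both its highest and its lowest library. Its log2 change of 0.81 (SE 0.53) in LPS+AS-IV against LPS was the largest of the well-read members and did not pass (adjusted p = 0.98). Its log2 change in LPS against Control was -0.61 (SE 0.53). Leaving out 1 library at a time moved the LPS+AS-IV against LPS value between 0.14 and 1.26.

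let-7f-5p had 18519, 40534 and 7638 CPM in LPS+AS-IV libraries, 24414, 20839 and 30826 CPM in LPS, and 35814, 35493 and 20432 CPM in Control. LPS+AS-IV 3 was again the lowest library. Its log2 change was -0.46 (SE 0.46) in LPS+AS-IV against Control. let-7g-5p had 24356, 25417 and 33846 CPM in LPS+AS-IV libraries, 19017, 20856 and 29285 CPM in LPS, and 22404, 12247 and 26884 CPM in Control, and its groups overlapped.

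let-7d gave reads from both arms of its hairpin. let-7d-5p had 18303, 21882 and 24139 CPM in LPS+AS-IV libraries, 13112, 13484 and 16040 CPM in LPS, and 15853, 12363 and 24786 CPM in Control. Each LPS+AS-IV library was above each LPS library, with a log2 change of 0.59 (SE 0.40) that did not pass (adjusted p = 0.98). Named by sequence the 2 groups overlapped, with 13595, 16249 and 20655 CPM in LPS+AS-IV libraries and 16092, 14554 and 12842 CPM in LPS. let-7d-3p had 9944, 5364 and 5410 CPM in LPS+AS-IV libraries, 4419, 15783 and 4177 CPM in LPS, and 6794, 7139 and 6266 CPM in Control. LPS 2 was the highest library, and there let-7d-3p held 53.9% of the reads of the 2 arms, against 18.3 to 36.6% in the other 8 libraries.

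let-7e-5p was at the edge of detection. It had 8, 226 and 3 reads in LPS+AS-IV, 43, 56 and 2 in LPS, and 101, 0 and 156 in Control. Each group held libraries both near 0 and far above it, and its log2 change of 0.67 in LPS+AS-IV against LPS had an SE of 2.30. The low count of LPS 3 rests on the naming, as 54 let-7e reads there were filed under miR-3596c and 88 under a hairpin. Named by sequence, let-7e-5p had 1690, 2251 and 3.74 CPM in LPS+AS-IV libraries, 1294, 582 and 1219 CPM in LPS, and 3080, 426 and 1187 CPM in Control.

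The miR-3596a row had 1441, 930 and 25.6 CPM in LPS+AS-IV libraries, 3079, 4614 and 2049 CPM in LPS, and 0, 0 and 1686 CPM in Control. All 3 LPS libraries lay above the other 6. Its log2 change was -2.04 (SE 2.15) for LPS+AS-IV against LPS, and it was 2.52 (SE 2.18) for LPS against Control, and neither passed (adjusted p = 0.98 and 0.96). Without Control 3, the one Control library with reads of this row, the LPS against Control value was 11.40, and over the other libraries left out it stayed between 1.99 and 2.84. The LPS+AS-IV against LPS value ran from -2.84 to -1.47 with 1 library left out.

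Counting by direction, 1 of 10 members did not overlap and was higher in LPS+AS-IV than in LPS (let-7d-5p), beside 4.26% of the 94 miRNAs. Its levels did overlap when tags were named by sequence. Lower without overlap in the same comparison was 1 of 10 (miR-3596a), also beside 4.26%. In LPS against Control 1 of 10 was higher without overlap (miR-3596a), beside 8.51% of all, and 0 of 10 were lower, beside 10.6%. In LPS+AS-IV against Control 0 of 10 were separated in either direction, beside 5.32% higher and 4.26% lower. The median log2 change of the members was 0.27 in LPS+AS-IV against LPS, 0.17 in LPS+AS-IV against Control and -0.08 in LPS against Control, beside 0.16, 0.21 and -0.04 over all 94 miRNAs. At an unadjusted p under 0.05, edgeR gave 2, 1 and 4 of the 94 in these comparisons and 0 members in each. DESeq2 also called 0 miRNAs, with 4, 7 and 10 at an unadjusted p under 0.05 and again 0 members in each.

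**Figure D2:**
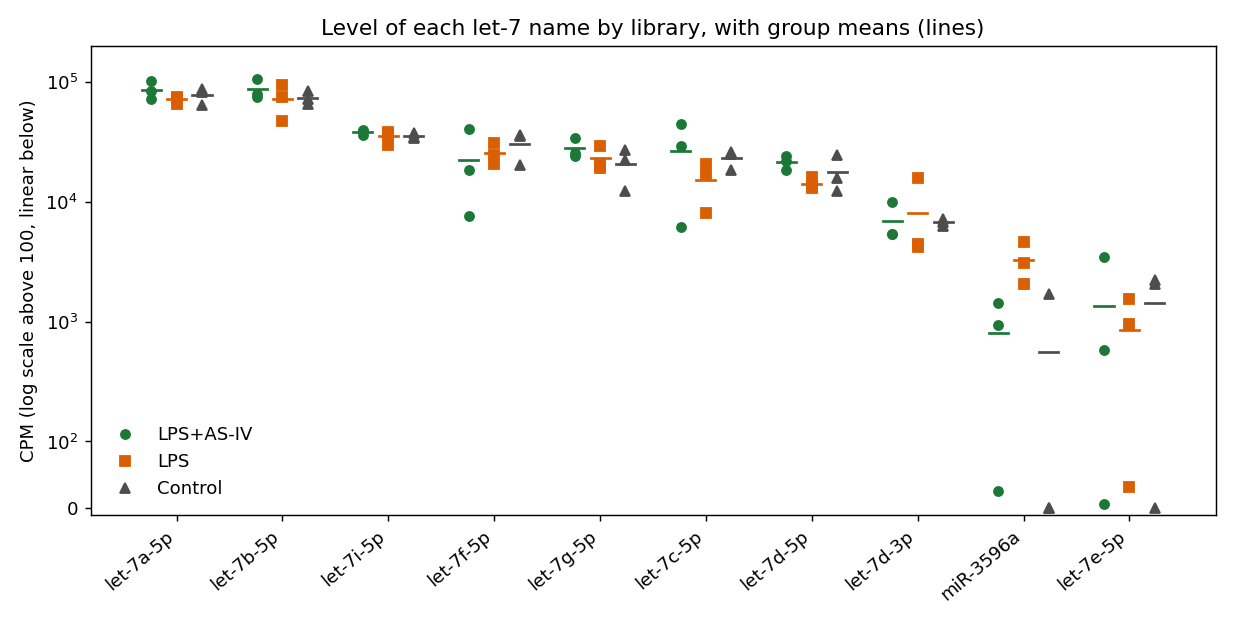
Level of each of the 10 names in CPM (log scale above 100, linear below) in the 3 LPS+AS-IV (circles), 3 LPS (squares) and 3 Control libraries (triangles), with group means as lines. let-7a-5p and let-7b-5p share the top, let-7i-5p is the tightest, and let-7e-5p and the miR-3596a row reach 0 in Control libraries.

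Of the other let-7 names, miR-98-5p, which shares the let-7 seed, had 18, 83 and 42 reads in LPS+AS-IV, 33, 0 and 90 in LPS, and 48, 17 and 52 in Control. The 3p arms of let-7a, let-7c, let-7e and let-7f were seen only as traces, with at most 54 reads in a library. In mammals miR-99a lies in a cluster with let-7c, miR-100 with let-7a-2, and miR-99b and miR-125a with let-7e. These 4 partners were tested and 0 of 4 passed in any comparison, and miR-125b-5p, the other partner listed, was not among the 198 names counted. miR-99a-5p had 8287, 25143 and 3938 CPM in LPS+AS-IV libraries, 7100, 7627 and 6527 CPM in LPS, and 14277, 9838 and 9360 CPM in Control. It was highest in LPS+AS-IV 2 and lowest in LPS+AS-IV 3, as let-7c-5p was. miR-99b-5p had 1225, 5013 and 1166 CPM in LPS+AS-IV libraries, 3514, 1243 and 5098 CPM in LPS, and 5817, 2931 and 3385 CPM in Control. miR-100-5p had 216, 0 and 2215 CPM in LPS+AS-IV libraries, 1992, 2162 and 1652 CPM in LPS, and 266, 784 and 956 CPM in Control. miR-125a-5p had 0, 64 and 0 reads in LPS+AS-IV, 0 in each LPS library, and 1, 82 and 94 in Control. These zeros rest on the naming: with tags of 1 mismatch counted it had 1920, 2481 and 2654 CPM in LPS+AS-IV libraries, 3450, 1026 and 2370 CPM in LPS, and 59.9, 3607 and 1514 CPM in Control, and a log2 change of 0.40 (SE 1.11) in LPS against Control.

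Among the tested miRNAs outside these lists, the ones whose log2 CPM followed the summed family most closely over the 9 libraries were miR-93-5p (Pearson r = 0.63), miR-10a-5p (r = 0.61) and miR-423-5p (r = 0.57). These r values describe 9 libraries of unequal depth that share 1 scaling. miR-93-5p ranged from 724 CPM in LPS 1, where the family was also lowest, to 11578 CPM in LPS 3.

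Within the family, the makeup was similar in the 3 groups apart from single libraries. let-7a-5p held 27.0% ± 1.39 of family reads in LPS+AS-IV, 26.7% ± 1.20 in LPS and 27.0% ± 3.33 in Control (SD, n = 3 each). let-7b-5p held 27.5% ± 6.28, 26.3% ± 5.85 and 25.6% ± 1.70 in the same groups. let-7d-5p held 6.39, 6.03 and 7.87% in LPS+AS-IV, against 5.64, 4.61 and 5.69% in LPS and 5.75, 4.39 and 8.08% in Control. The LPS+AS-IV and LPS values did not overlap (exact p = 0.1, adjusted p = 1 over 30 tests). Named by sequence they did: 5.38, 5.40 and 8.76% in LPS+AS-IV against 6.64, 5.25 and 5.58% in LPS.

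LPS+AS-IV 3, the deepest library, had the most unusual makeup. let-7b-5p held 34.3% of its family reads, the highest of the 9. let-7c-5p held 1.99% and let-7f-5p 2.49%, the lowest of the 9, while the other libraries had 2.75 to 12.4% and 6.47 to 13.0%. Named by sequence the picture was the same, with let-7c-5p at 1.86% and let-7f-5p at 3.46%. LPS 2 came next to it in let-7c-5p, at 2.75%, and in let-7b-5p, at 32.1%.

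**Figure D3:**
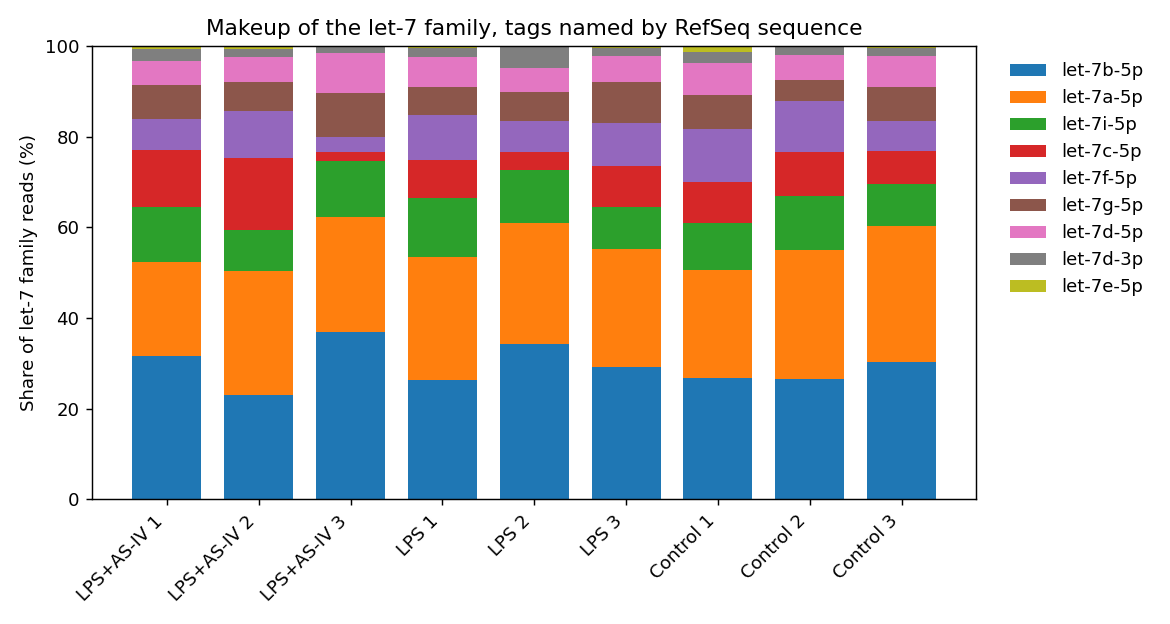
Makeup of the let-7 family in each library as a share of family reads (%), with tags named by RefSeq sequence, so that no tag is filed as miR-3596a. let-7b-5p (blue) and let-7a-5p (orange) are the lowest 2 segments of each bar, and let-7c-5p (red) narrows to 1.86% in LPS+AS-IV 3.

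The tags also show how the ends of each microRNA varied. A total of 430621 reads matched a member up to base 19, with at most 2 bases missing or added at the 5′ end. They were compared with its RefSeq mature sequence. Between 97.6 and 99.1% of the reads given a family name (miR-98-5p and the miR-3596 names included) in a library matched in this way. There were 239 distinct tags, of which 29 occurred in all 9 libraries and held 89.7% of the reads, and 132 occurred in 1 library each. Of the 19 tags with at least 100 reads that occurred in a single library, 10 were in LPS+AS-IV 3.

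The exact mature sequence made up 57.3, 60.3 and 60.2% of family reads in LPS+AS-IV, 56.6, 58.8 and 63.2% in LPS, and 61.7, 64.0 and 66.0% in Control. Every LPS+AS-IV library lay below every Control library, at 59.3% ± 1.70 against 63.9% ± 2.15 (SD, n = 3 each; exact p = 0.1, adjusted p = 0.9 over 18 tests). Reads with bases added at the 3′ end were 29.8, 19.4 and 17.8% in LPS+AS-IV, 29.0, 18.1 and 20.4% in LPS, and 17.9, 17.4 and 16.7% in Control. The LPS libraries all lay above the Control libraries (exact p = 0.1, adjusted p = 0.9), with LPS 1 and LPS+AS-IV 1 far above the rest. These were also the 2 shallowest libraries, with 25709 and 15428 mature reads. Reads shortened at the 3′ end averaged 17.8% ± 4.54 in LPS+AS-IV, 17.2% ± 4.02 in LPS and 18.1% ± 1.70 in Control. The 5′ end, which sets the seed, was moved in at most 1.65% of family reads in any library. By member it was moved most often in let-7d-3p, on 4.27 to 16.8% of its reads in a library. In let-7g-5p it was moved on 0 to 7.20%.

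Most reads were 22 nt long, from 57.8 to 66.7% in each library, and 10.8 to 22.6% were 21 nt and 10.4 to 21.0% were 23 nt. The mean length stayed between 21.99 and 22.25 nt.

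**Figure D4:**
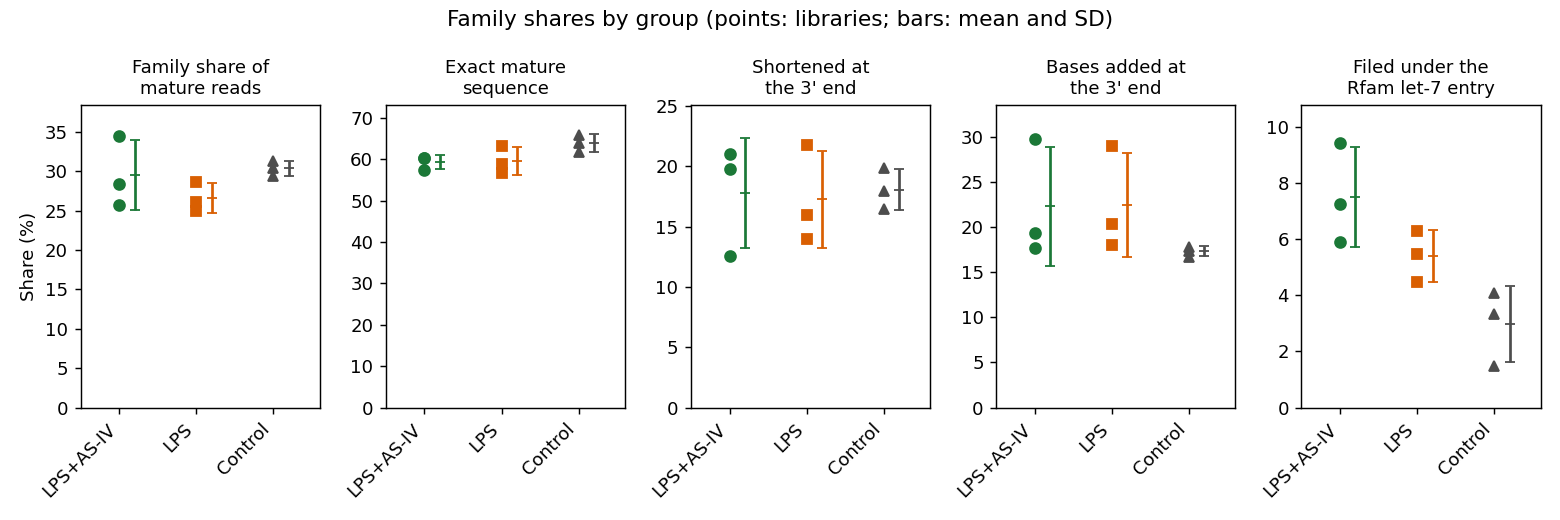
Family share of mature miRNA reads, and shares of family reads with the exact mature sequence, a shortened 3′ end, added 3′ bases or a place under the Rfam let-7 entry (all %), in LPS+AS-IV, LPS and Control, with points for libraries and bars for mean and SD (n = 3 each). The LPS points lie below all Control points in the family share, and the Control points are the lowest in the last panel.

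The members differed from each other in their ends more clearly than the groups did. let-7b-5p and let-7c-5p, which both end in gguu, had added bases most often, on 35.7% ± 8.67 and 30.5% ± 9.86 of their reads (SD over 9 libraries). let-7a-5p had added bases on 10.1% ± 4.45, let-7f-5p on 11.1% ± 7.33 and let-7g-5p on 7.40% ± 7.34. These 3 were shortened instead, on 23.8% ± 5.00, 23.5% ± 13.0 and 22.0% ± 5.97 of reads, while let-7b-5p was shortened on 10.8% ± 2.78. The exact sequence was more frequent in let-7a-5p than in let-7b-5p and let-7c-5p in 9 of 9 libraries. let-7i-5p was exact on 71.0% ± 8.84 of its reads. In LPS+AS-IV 3, 55.4% of let-7f-5p reads were shortened, against 11.1 to 25.5% in the other libraries.

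**Figure D5:**
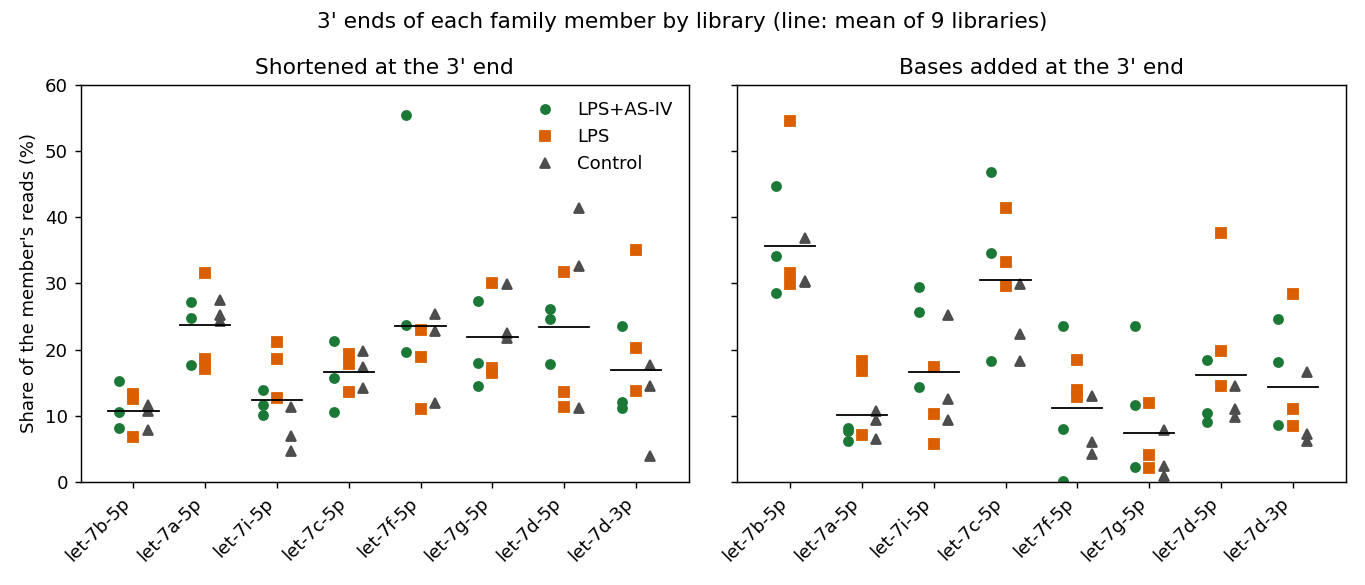
Share of each member's reads (%) that were shortened (left) or had bases added (right) at the 3′ end, by library, in LPS+AS-IV (circles), LPS (squares) and Control (triangles), with the mean of the 9 libraries as a line. let-7b-5p and let-7c-5p stand highest in added bases and let-7a-5p, let-7d-5p, let-7f-5p and let-7g-5p in shortening, and let-7e-5p is left out because a library had as few as 4 reads.

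The added bases also differed by member. The most read tag with an added base is shown for 7 members because it gives that base, in capitals.
let-7b-5p with T: tgaggtagtaggttgtgtggttT
let-7c-5p with T: tgaggtagtaggttgtatggttT
let-7a-5p with T: tgaggtagtaggttgtatagttT
let-7i-5p with A: tgaggtagtagtttgtgctgttA
let-7g-5p with A: tgaggtagtagtttgtacagttA
let-7e-5p with G: tgaggtaggaggttgtatagttG
let-7d-3p shortened, with A: ctatacgacctgctgcctttcA
Which base came first varied between libraries for most members, and LPS+AS-IV 3 alone holds 251773 of the 430621 family reads, so the shares here are means over libraries that weight each alike. Reads with bases added to a shortened end count as well, except for let-7e-5p. T, which stands for uridine in the RNA, came first on 67.7% ± 19.3 of the let-7c-5p reads with an added base and A on 27.0% ± 16.3 (SD, n = 9), and T led in 8 of 9 libraries. In let-7d-3p A came first on 87.4% ± 23.6 of the reads with an added base and T on 0.359% ± 0.875, and A led in 9 of 9. Few of these reads were longer than the mature sequence, and only 54 over all libraries had bases after its full end. The let-7d-3p tag shown, with 836 reads, is 22 nt long and has A in place of the last base. The other members were mixed. let-7b-5p had T first on 17.3% ± 6.04 of all its reads and A first on 16.2% ± 6.80. T led in 6 of 9 libraries for let-7f-5p and in 5 of 9 for let-7a-5p, let-7b-5p and let-7d-5p, and A led in 5 of 9 for let-7g-5p and let-7i-5p. In let-7e-5p G led, with 222 of only 280 reads that had bases after the full mature end, over all libraries.

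Some added bases continue the RefSeq hairpin and others do not. Extended reads are here those with bases after the full mature end. After the mature end the hairpins of let-7c read uugg and uaga, and on average over the 9 libraries 77.1% ± 22.9 of the extended let-7c-5p reads matched one of them in every added base. For let-7f-5p, whose hairpins go on with gugg and uuag, the share was 66.5% ± 35.3, and for let-7a-5p it was 50.7% ± 17.3. The hairpin of let-7i goes on with gguc, and only 4.62% ± 6.28 of the extended let-7i-5p reads matched it, at most 17.1% in a library. The hairpin of let-7g goes on with ugag, and its share of 29.8% ± 35.1 ran from 0 to 100% between libraries. A base that matches the hairpin can come from the cut of the precursor or from addition afterwards, and the tags do not tell these apart. let-7b was not compared, as no hairpin was used for it.

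The files gave these reads 3 kinds of assignment. By library, 60.8 to 67.9% of the reads that matched the family or miR-98-5p by sequence were filed under a mature name, 28.1 to 33.5% under a hairpin and the rest under the Rfam let-7 entry. The member shares that follow pool the reads of all libraries, most of which came from LPS+AS-IV 3. let-7b-5p had 12.5% of its reads under the Rfam entry, let-7d-5p 12.4% and let-7c-5p 11.7%. Of the 4037 Rfam reads of let-7d-5p, LPS+AS-IV 3 alone gave 1959 in a 20-nt tag and 1733 in a 24-nt tag with AT added, so its share rests largely on that library. let-7f-5p had 32.4% of its reads under miR-3596d, let-7e-5p 27.7% under miR-3596c, and let-7a-5p 22.9% under miR-3596c. let-7g-5p had 99.9% under its own name. The counts of mature names above leave out reads filed under a hairpin or the Rfam entry, and so hold different parts of different members.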

How the data were processed

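The authors' deposited table held whole-number read counts of 201 mature rat miRNAs, per the file headers, and an exp column of whole-number counts whose making no source states. The deposited library files held the count of each tag sequence with 1 assignment, and a score that is the number of mismatches or an Rfam score, per the file headers. Bowtie2 and the build Rnor_6.0 are named in the submitters' processing notes with no role. Trimming and the miRBase release are not stated. No per-sample column was left without a sample.

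Here mature tags were summed with 1 name per sequence. edgeR 4.0.16 (R 4.3.3) fitted all 9 libraries with TMM factors, filterByExpr and the quasi-likelihood test, with Benjamini-Hochberg adjustment over 94 of 198 names and a threshold of 0.05. The fit was also run on simulated data, with an outcome not given here. For the 9 libraries its common dispersion, which measures spread between libraries, was 1.95. Each SE is the absolute log2 change over the square root of F. Shares were compared with exact two-sided permutation tests in scipy 1.17.1. Ends were read against RefSeq sequences (GRCr8). Intervals are 95% Wilson intervals from scipy 1.17.1 and floors are 3 reads. Alternatives were DESeq2 1.42.0, other scalings, namings and filters, and each library left out. Named were the 10 members, other let-7 names, cluster partners and the 3 miRNAs most like the family. Members, lists and tests were chosen with earlier results of these data known.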

Additional observations from a re-analysis of the deposited data

Results flagged for a closer look

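The share of family reads filed under the Rfam let-7 entry, which the table of mature miRNAs leaves out, was higher in every LPS+AS-IV and every LPS library than in every Control library. It was 9.40, 5.88 and 7.23% in LPS+AS-IV, 6.28, 5.45 and 4.46% in LPS, and 3.35, 1.48 and 4.09% in Control. The means were 7.50% ± 1.78 in LPS+AS-IV, 5.39% ± 0.912 in LPS and 2.97% ± 1.34 in Control (SD, n = 3 each), with exact two-sided permutation p = 0.1 for each of the first 2 groups against Control, the smallest this design can give, and adjusted p = 0.15 over 3 comparisons. LPS+AS-IV and LPS overlapped (exact p = 0.2). In each library 54.8 to 94.4% of these reads were in tags of 24 nt or more, and up to 40.7% were in tags of 20 nt. A 24-nt let-7i-5p tag with AA added gave 1373 of them, all in LPS+AS-IV 3. Reads with added bases averaged 22.3% in LPS+AS-IV, 22.5% in LPS and 17.3% in Control, and their part in this difference was not tested.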

How the results depend on the processing

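With the deposited names the count of called miRNAs moved to 2 in LPS+AS-IV against Control and 1 in LPS against Control, and the called members were 2 and 1. Their fitted log2 changes were 16.07 for let-7a-5p and -10.38 for miR-3596a in LPS+AS-IV against Control, and 15.80 for let-7a-5p in LPS against Control, the last 2 opposite in sign to the values with 1 name per tag. Fits against libraries at 0 depend on the prior count and give no bound. The deposited table with only let-7a-5p and miR-3596a summed gave 0 calls in each comparison. Replicate numbers were not shared sources by the labels, and same-numbered libraries did not deviate together in every pair (r from -0.10 to 0.13). With the replicate block, 1 miRNA was called in LPS against Control (miR-486, no member). Leaving out 1 library at a time gave 0 to 1 calls in each of the 3 comparisons and no member: miR-486 without LPS 1 in both comparisons with LPS, and miR-181b-5p without LPS+AS-IV 2 in LPS+AS-IV against Control. Outside the deposited names, the smallest adjusted p of a member was 0.24 in LPS+AS-IV against LPS, 0.12 in LPS+AS-IV against Control and 0.46 in LPS against Control.

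No value of a share or an end passed the threshold under any alternative run, which with 3 libraries or fewer a group is all the exact test allows, so this says nothing of stability. The sign turned in 78 of 561 member levels, 47 of 261 member shares, 25 of 144 end measures and 4 of 30 family shares. One of the 4 was LPS against Control with all assigned reads as the denominator. No difference was detectable for let-7e-5p and miR-98-5p at 0 to 226 reads a library, and a count of 0 allowed up to 3 reads, or 5.47 per 1000000 mature reads in the library LPS+AS-IV 3 and 194 in the shallowest library, LPS+AS-IV 1.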
